A study of Mus musculus with 8 samples.

Results

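Mir98 and Mirlet7f-2 are microRNA (miRNA) genes of the let-7 family that lie close together on the mouse X chromosome, within the span of Huwe1, which encodes a ubiquitin ligase. They are 2 of the 2202 miRNA genes in the deposited tables, and they were chosen by their measured values: their counts moved apart in the immunoprecipitate (IP) of AGO2. Contrasts that use IP libraries are therefore given here as descriptions. Only the comparison of input libraries carries a test; the rule names the IP alone, but the input values were also known when the genes were chosen. Small RNA was sequenced from spleen B cells of Ago2HA/HA mice, in which AGO2 carries an HA epitope, so that every library comes from tagged animals. B cells were enriched by removing cells that bear CD43, and were either left resting or activated in culture so that they proliferated. The 8 libraries form 4 groups of 2: resting input, resting IP, proliferating input and proliferating IP. The labels record that the same procedure on untagged mice yielded no RNA to sequence. They give neither the age of the mice nor the activating agent, and do not say whether the libraries numbered 1 and 2 stand for separate mice. P-values therefore measure the spread between these libraries, which may be technical.

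miRNAs are short RNAs cut from hairpin precursors. One strand of the duplex is loaded into an Argonaute protein such as AGO2 and guides it to messenger RNAs that pair with its seed, bases 2 to 8 of the miRNA. The let-7 family is known for holding back growth-promoting genes, and LIN28 proteins block the processing of its precursors. The Huwe1 pair is known to lie in an intron, so that both hairpins can be cut from one primary transcript. The RefSeq table used here gives gene spans only, so exons and introns were not separated.

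Mirlet7f-2 (ENSMUSG00000065602.1) covers chromosome X from 151912346 to 151912428 on the plus strand, a length of 83 nt, and Mir98 (ENSMUSG00000065536.2) covers 151913214 to 151913321 on the same strand, a length of 108 nt (mm10). The spans are 785 nt apart and lie within Huwe1 (151800785 to 151935417). Neither overlaps another counted miRNA gene. The table holds 1 more miRNA gene within the Huwe1 span, Mir3113, which had no count in any library.

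The sequences decide which reads can be told apart, so both arms of each hairpin are shown, from RefSeq (GRCm38.p6), with the seed in capitals.
let-7f-5p of Mirlet7f-2: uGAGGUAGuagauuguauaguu
miR-98-5p of Mir98: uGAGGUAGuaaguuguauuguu
let-7f-2-3p of Mirlet7f-2: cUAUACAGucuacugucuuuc
miR-98-3p of Mir98: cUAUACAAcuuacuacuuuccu
The 5p arms, which are the arms that let-7 genes are known to load into Argonaute, have the same seed, GAGGUAG. They differ at 3 of 22 positions, counted from the 5′ end of let-7f-5p: G11A, A12G and A19U. The 3p arms differ at 7 of 21 positions, one of them (G8A) in the seed.

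miR-98-5p occurs in 1 of the 1005 RefSeq hairpins searched and differs from the closest other hairpin, that of Mirlet7a-1, by 2 mismatches. For let-7f-5p the closest hairpin that lacks it is also that of Mirlet7a-1, by 1 mismatch. let-7f-5p itself occurs in 2 of the 1005 hairpins, those of Mirlet7f-2 and of Mirlet7f-1 on chromosome 13. The hairpins of these copies are shown because they differ just past the shared arm, with the mature arms in capitals.
Mirlet7f-2 hairpin: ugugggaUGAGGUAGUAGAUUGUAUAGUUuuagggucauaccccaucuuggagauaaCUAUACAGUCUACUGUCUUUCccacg
Mirlet7f-1 hairpin: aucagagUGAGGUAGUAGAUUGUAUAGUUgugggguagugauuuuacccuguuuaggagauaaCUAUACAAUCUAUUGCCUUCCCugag
Among the hairpins searched, a read that starts at the first base of let-7f-5p matches Mirlet7f-2 alone only from 23 nt on. That is 1 nt past the mature end, where the Mirlet7f-2 hairpin has U and the Mirlet7f-1 hairpin has G. A let-7f-5p to which 1 U was added after cutting would match Mirlet7f-2 too, whichever gene it came from. For miR-98-5p, 11 nt are enough among these hairpins. The rest of the genome was not searched, so a read this short could match elsewhere. Mirlet7f-1 had a count of 0 in all 8 libraries and overlaps a counted feature on the opposite strand, ENSMUSG00000093232.1, which also had 0. The tables do not say which arm or which read lengths gave the Mirlet7f-2 counts, and the share of the cells' let-7f that they hold was not tested. All values of Mirlet7f-2 below carry this limit.

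Library totals ran from 213418 to 1681148 counts. Of the 2202 genes, 560 had a count and 219 had enough counts to be tested, both members among them. Levels are CPM (counts scaled to a common library size) with TMM factors, which scale libraries to one another. The markers of cell state followed the labels: Mir150, the miRNA of resting lymphocytes, took 30.2% to 30.7% of counts in the resting inputs and 2.88% to 3.84% in the proliferating inputs, and Mir155, induced on activation, took 1.08% to 1.21% and 14.8% to 15.3%. Mir142, also on the lymphocyte list, was at 0 in every library. A feature of similar name, Mir142b, had enough counts to be tested (log2 fold change -2.44, resting against proliferating input, edgeR adjusted p = 0.0764). Whether reads of Mir142 were counted there was not tested, so the 0 does not show that the cells lack it. Bulk libraries cannot tell fewer cells of a type from less RNA per cell.

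Mir98 was a minor miRNA in every library. Input held 61 and 76 Mir98 counts in resting cells and 242 and 160 in proliferating cells; the IP held 362 and 194 when resting and 425 and 780 when proliferating. As levels, resting input had 171 and 187 CPM, proliferating input 683 and 561 CPM, resting IP 270 and 260 CPM, and proliferating IP 622 and 661 CPM. All 4 resting libraries lay below all 4 proliferating ones, and the proliferating input and IP libraries overlapped. Mir98 ranked 102nd and 94th among all miRNA genes in the resting inputs and 60th and 66th in the proliferating inputs.

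Mirlet7f-2 was counted more often in every library and followed another order. Input held 987 and 1031 Mirlet7f-2 counts in resting cells and 889 and 672 in proliferating cells; the IP held 12260 and 5914 when resting and 986 and 2387 when proliferating. As levels, resting input had 2763 and 2532 CPM, proliferating input 2509 and 2357 CPM, resting IP 9149 and 7915 CPM, and proliferating IP 1442 and 2024 CPM. The resting IPs stood far above all other libraries, the inputs of both states lay side by side, and the proliferating IPs were the lowest. Mirlet7f-2 ranked 23rd and 20th in the resting IPs, and 44th and 40th in the proliferating IPs.

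**Figure D1:**
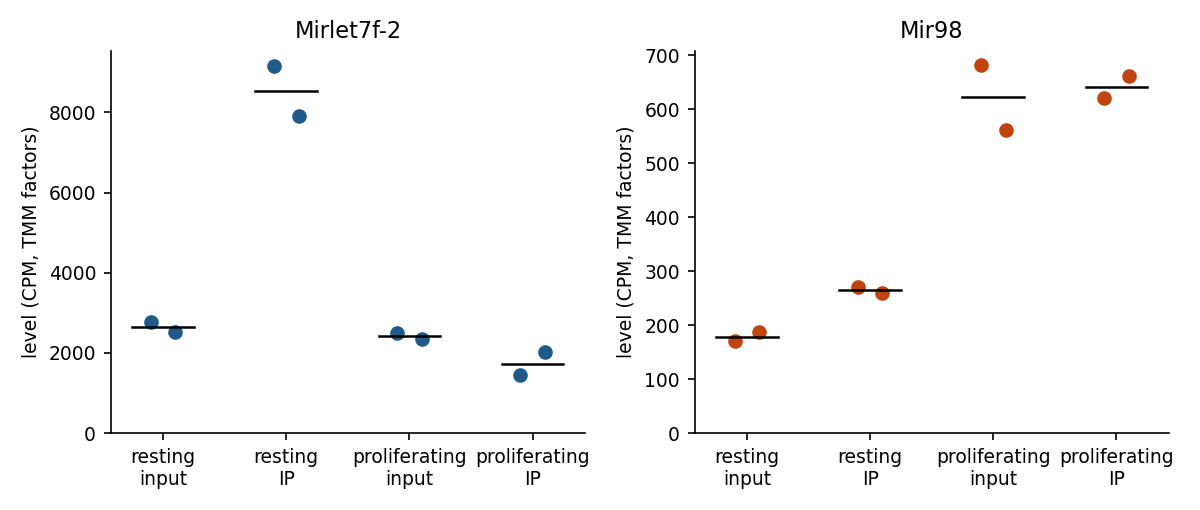
Level of each gene in each library (vertical axis, CPM with TMM factors, from 0, with a scale of its own for each gene) in the 4 groups; points are libraries and lines are means of 2. Mir98 lies at or below 270 CPM in the resting libraries and at or above 561 CPM in the proliferating ones, while Mirlet7f-2 is highest in the resting IPs.

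The comparison of resting with proliferating input asks whether the genes differ between cell states before AGO2 is selected. Mir98 was lower in resting cells, at 179 ± 11.2 CPM against 622 ± 86.1 CPM (mean ± SD, n = 2 here and below), which is 3.48-fold lower (log2 fold change -1.80, SE 0.36, edgeR adjusted p = 8.38e-05). Both resting inputs lay below both proliferating inputs. Mirlet7f-2 did not pass, at 2647 ± 163 CPM in resting against 2433 ± 107 CPM in proliferating input (log2 fold change 0.12, SE 0.27, edgeR adjusted p = 0.726). Its sign turned to -0.23 when libraries were scaled by their totals, so that it has no settled direction. In the same test 49.3% of the 219 genes passed at an adjusted p under 0.05, with 23.3% higher and 26% lower in resting input. That split was 51 higher and 57 lower, and it moved to 37 and 75 with library totals and to 59 and 39 with upper-quartile factors. A call is therefore common in this fit, and 48 of the 219 genes had a lower log2 fold change.

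In single libraries Mir98 made up 0.0170% of resting input 1 (95% exact binomial interval 0.0130 to 0.0218) and 0.0197% of resting input 2 (0.0155 to 0.0246). Its share was 0.0876% of proliferating input 1 (0.0769 to 0.0993) and 0.0750% of proliferating input 2 (0.0638 to 0.0875). Mirlet7f-2 made up 0.275% of resting input 1 (0.258 to 0.293) and 0.267% of resting input 2 (0.251 to 0.283). Its share was 0.322% of proliferating input 1 (0.301 to 0.344) and 0.315% of proliferating input 2 (0.292 to 0.340). These shares are scaled by the library total alone, so they depend on what else each library holds. Their intervals cover counting error only. For Mir98 the intervals of the states are far apart, while for Mirlet7f-2 they lie close to each other.

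The ratio of the genes within a library needs no scaling between libraries. For each Mir98 count there were 16.2 and 13.6 Mirlet7f-2 counts in the resting inputs and 3.67 and 4.20 in the proliferating inputs. The ratio in input thus differed 3.77-fold between the states, a gap of -1.92 on the log2 scale for Mir98 against Mirlet7f-2, where the pooled SD of the log2 ratio was 0.16. Both resting inputs lay on one side of both proliferating inputs. The exact 2-sided permutation test over these 4 libraries gave p = 0.333, the smallest it can give. As a share of the summed counts of both genes, Mir98 was 5.82% of resting input 1 (4.48 to 7.41, 95% exact interval) and 6.87% of resting input 2 (5.45 to 8.52). It was 21.4% of proliferating input 1 (19.0 to 23.9) and 19.2% of proliferating input 2 (16.6 to 22.1).

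In the IP the ratio was further apart. There were 33.9 and 30.5 Mirlet7f-2 counts per Mir98 count in the resting IPs, and 2.32 and 3.06 in the proliferating IPs. Of both genes' counts Mir98 was 2.87% of resting IP 1 (2.58 to 3.17) and 3.18% of resting IP 2 (2.75 to 3.65), against 30.1% of proliferating IP 1 (27.7 to 32.6) and 24.6% of proliferating IP 2 (23.1 to 26.2). The ratio differed 12.1-fold between the states in the IP. This is the pattern that chose the genes, and no test is given for it. Set per nt of each span, the Mirlet7f-2 count was between 3.02 and 44.1 times the Mir98 count over the 8 libraries. Dividing by span length changes the ratio by the same factor in every library. The spans are longer than the mature arms, so this is not a better estimate of the ratio of the miRNAs.

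**Figure D2:**
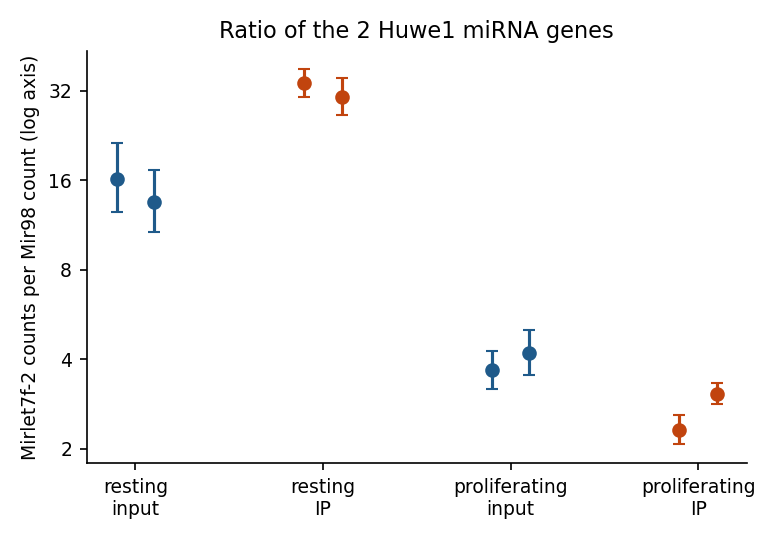
Counts of Mirlet7f-2 for each count of Mir98 in each library (log axis), with bars for the exact 95% binomial interval of counting error; blue is input and orange is IP. The ratio lies between 13.6 and 33.9 in resting libraries and between 2.32 and 4.20 in proliferating ones, and IP and input are ordered in opposite ways in the 2 states.

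Set against its own input, Mirlet7f-2 was 3.22-fold higher in resting IP, at 8532 ± 872 CPM (log2 fold change 1.69, SE 0.28). Mir98 was at 265 ± 7.42 CPM in the resting IP, a log2 fold change of 0.57 (SE 0.35). Both resting IPs exceeded both resting inputs for each gene. The ratio of Mir98 to Mirlet7f-2 was 2.17-fold lower in the resting IP than in the resting input.

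In proliferating cells the order was turned. Mirlet7f-2 was at 1733 ± 411 CPM in the proliferating IP, a log2 fold change of -0.49 against input (SE 0.27), with both IPs below both inputs. Mir98 was at 641 ± 28.1 CPM, a log2 fold change of 0.04 (SE 0.34), and its IP and input libraries overlapped. With library totals the fold change of Mir98 was -0.56 and that of Mirlet7f-2 -1.10, so the direction for Mir98 hangs on the scaling. The ratio does not: Mir98 gained 1.47-fold on Mirlet7f-2 in the proliferating IP.

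Between resting and proliferating IP, Mirlet7f-2 had a log2 fold change of 2.30 (SE 0.29), which is 4.92-fold, and Mir98 one of -1.28 (SE 0.34), which is 2.42-fold lower in resting IP. The difference between the states in IP against input was 2.18 (SE 0.39) for Mirlet7f-2 and 0.52 (SE 0.49) for Mir98, on the log2 scale. These contrasts share libraries with each other and are not independent of one another.

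The let-7 list puts these values beside their relatives. Of its 13 genes, 11 had a count and 10 were tested; Mirlet7f-1 and Mirlet7e were at 0, and Mir202 had too few counts. In input 1 gene was higher and 3 were lower in resting cells, while 6 did not pass, Mirlet7f-2 among them. Over all 219 genes 49.3% passed, with 23.3% higher and 26% lower, so 4 of 10 is near the background and is no result about the list. The median log2 fold change of the 10 was -0.43, beside -0.04 over all 219 genes. Mir98 was among the 3 lower in resting cells, with Mirlet7i (-0.60, SE 0.25, edgeR adjusted p = 0.0431) and Mirlet7a-2 (-2.07), which rests on 4 to 50 counts in the input libraries. The abundant Mirlet7d (-0.50, edgeR adjusted p = 0.111), Mirlet7g (-0.35, edgeR adjusted p = 0.267) and Mirlet7b (0.18, edgeR adjusted p = 0.604) did not pass.

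In the contrasts with IP, which are descriptions, Mirlet7f-2 lay within the range of the other let-7 genes and Mir98 lay outside it in 3 of 4, in 1 of them by less than its SE. Between resting and proliferating IP the 8 other tested genes ran from -0.05 (Mirlet7a-2) to 4.35 (Mirlet7c-2), all above Mir98. In resting IP against input they ran from -0.40 (Mirlet7c-1) to 1.88 (Mirlet7b), and 6 of the 8 lay above Mir98. In proliferating IP against input they ran from -2.46 (Mirlet7c-1) to -0.11 (Mirlet7d, SE 0.27), all below Mir98, but Mirlet7d by less than the SE of either gene. In the difference between states they ran from 1.18 (Mirlet7d) to 3.92 (Mirlet7b), all above Mir98.

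**Figure D3:**
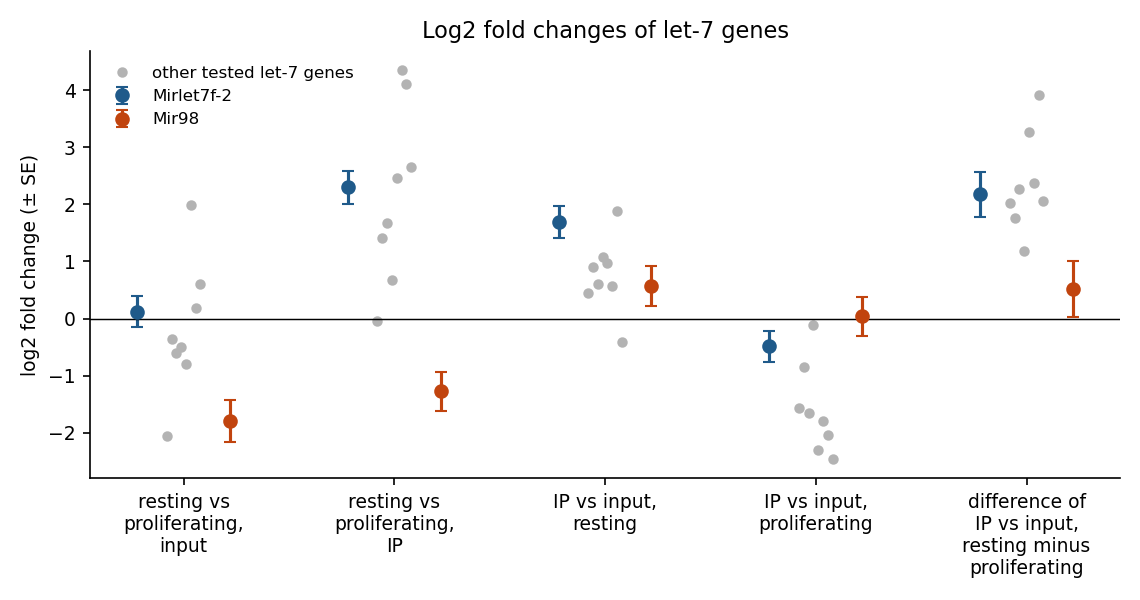
Log2 fold change (vertical axis) in the 5 contrasts for Mirlet7f-2 (blue) and Mir98 (orange), with bars of 1 SE, and for the 8 other tested let-7 genes (grey). Mir98 lies below all grey points between resting and proliferating IP (-1.28) and in the difference between states (0.52), and next to the highest of them in proliferating IP against input (0.04), and Mirlet7f-2 lies among them in all 5.

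The genes also made up a changing part of the counted family. Of the 14 genes in the tables whose hairpin holds a mature miRNA with the seed GAGGUAG, 12 had a count. Together they took 4.77% ± 0.330 of the resting input, 7.40% ± 0.697 of the resting IP, 8.64% ± 0.696 of the proliferating input and 2.36% ± 0.719 of the proliferating IP. Near-identical copies such as the let-7a genes had few counts, so this sum may leave out some of the family.

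Within that sum Mir98 was 0.340% and 0.433% for resting input, 0.273% and 0.356% for resting IP, 0.959% and 0.920% for proliferating input, and 2.89% and 1.98% for proliferating IP. Its part was lowest in resting cells, where input and IP overlapped, and highest in the proliferating IP. Mirlet7f-2 was 5.50% and 5.88% of the sum for resting input, 9.24% and 10.9% for resting IP, 3.52% and 3.86% for proliferating input, and 6.71% and 6.05% for proliferating IP. Its part was higher in IP than in input in both states, although its level in CPM was lower in the proliferating IP. Mirlet7i was the largest part of the sum (mean count 23675, beside 5017 for Mirlet7d, the next). The shares of Mir98 and Mirlet7f-2 therefore also move with Mirlet7i. In IP against input Mirlet7i had a log2 fold change of 0.61 (SE 0.25) in resting and -1.66 (SE 0.25) in proliferating cells.

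**Figure D4:**
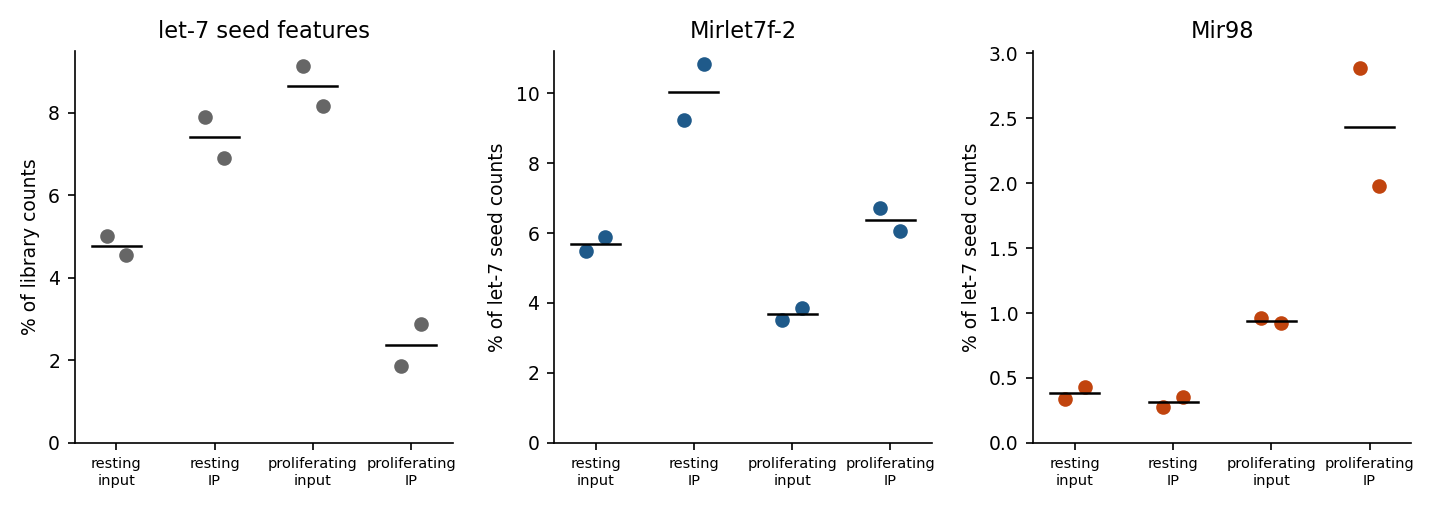
Left, the share of library counts taken by the 12 counted genes with the let-7 seed; middle and right, the share of that sum taken by Mirlet7f-2 and by Mir98 (percent, from 0, each panel with a scale of its own). Points are libraries and lines are means of 2; Mir98 reaches 2.89% and 1.98% in the proliferating IPs.

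Other neighbouring miRNA genes give a scale for how far apart a pair can lie. There were 75 pairs of tested genes on one strand within 10 kb of each other, Mirlet7f-2 and Mir98 among them; pairs of one cluster share members and are not independent. In input the log2 fold changes of the Huwe1 pair differed by 1.92, the 13th largest difference, and the median of the other pairs was 0.75. The differences ran from 9.27e-05 for Mir25 and Mir106b to 9.34 for Mir450b and Mir542, where the second value rests on a gene without counts in the proliferating inputs. Among the 21 pairs in which both genes had a mean count of at least that of Mir98 (287.5), a limit chosen after seeing the data, the Huwe1 pair had the largest difference in input, beside a median of 0.36 for the others. Between resting and proliferating IP it ranked 3rd of the 75, at 3.57 beside a median of 0.87. The genes were chosen because they moved apart in the IP, so a high rank there follows from the choice and is no result.

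In IP against input the place of the Huwe1 pair depended on which pairs it was set beside. Over all 75 pairs its difference was 1.12 in resting cells, beside a median of 1.27 for the other pairs, and 0.53 in proliferating cells, beside 0.68. It ranked 40th of 75 in both states. Among the 21 pairs with counts at least those of Mir98 it lay above the median of the others in both states, at 1.12 beside 0.78 (rank 9) in resting and 0.53 beside 0.33 (rank 7) in proliferating cells. In the difference between states it ranked 22nd of 75, at 1.65 beside 0.98, and 3rd of the 21, beside 0.52. All ranks in this paragraph use the IP libraries by which the genes were chosen, and they are descriptions only.

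**Figure D5:**
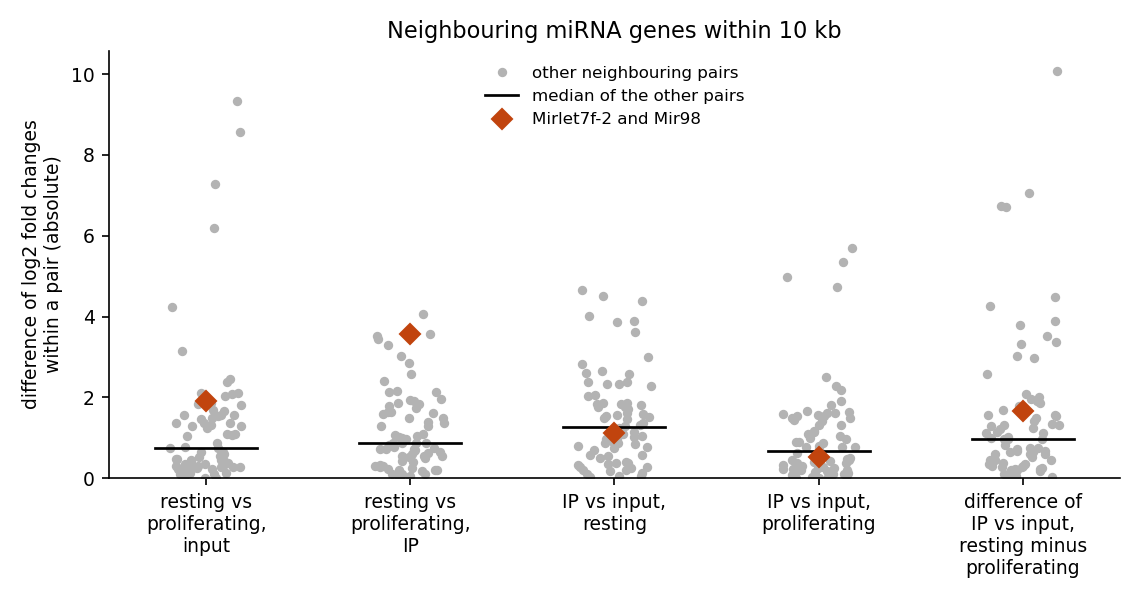
Absolute difference between the log2 fold changes of the genes of a pair (vertical axis) for 75 neighbouring pairs in 5 contrasts; grey points are other pairs, lines their medians, and diamonds Mirlet7f-2 and Mir98. The diamond lies above the line in both contrasts of cell state (1.92 against 0.75 in input) and, over all 75 pairs, below it in IP against input of each state. Its high place between resting and proliferating IP follows from how the genes were chosen.

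The levels of the genes were unlike each other over the 8 libraries (Pearson r = -0.49 of log2 CPM, Spearman rho = -0.62). Among 209 other genes with a mean of at least 10 CPM, those most like Mir98 were Mir92b (r = 0.98), Mir148a (0.97), Mir96 (0.97), Mir7-2 (0.96) and Mir872 (0.96). Those most like Mirlet7f-2 were Mir200b (0.97), Mir26b (0.95), Mir26a-2 (0.95), Mirlet7b (0.91) and Mirlet7g (0.89). The 8 points are 4 groups of 2 libraries, so these values describe shared group patterns and carry no p.

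Some markers of other cell types also differed between the groups, and not all in the same direction. The epithelial list (5 of 5 genes with a count), to which Mir200b belongs, summed to between 0.109% and 0.129% of resting input, 0.197% and 0.209% of resting IP, 0.0586% and 0.0759% of proliferating input, and 0.0380% and 0.0441% of proliferating IP. The myeloid Mir223 took 1.153% to 2.86% in resting input and 1.45% to 2.94% in resting IP, against 0.221% to 0.339% in proliferating input and 0.0695% to 0.106% in proliferating IP. The endothelial Mir126a was higher in proliferating libraries, at 0.0626% to 0.0820% of the inputs and 0.0889% to 0.176% of the IPs, against 0.0173% to 0.0253% and 0.00613% to 0.0147% in resting ones. The erythroid list, with 2 of 3 genes counted, took 0.0114% to 0.0259% of resting input and 0.00684% to 0.0235% of resting IP. In proliferating cells this list took 0.00181% to 0.00281% of input and 0.000218% to 0.000377% of IP. The hepatocyte Mir122 took 0.000836% to 0.00103% of resting input and 0.00609% to 0.00796% of proliferating input. In the IPs Mir122 took 0.00280% to 0.00355% when resting and 0.000509% to 0.00126% when proliferating. The stromal list (4 of 6 counted, Mir199a-2 and Mir214 at 0) stayed at or below 0.00809% in every library. The neural list (2 of the 3 genes found, Mir9-1 at 0) stayed at or below 0.000362%. The part of other cell types in the levels of Mir98 and Mirlet7f-2 was not tested.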

How the data were processed

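The submitters' processing notes name STAR 2.7.9a, SAMtools 1.15 and mm10; per the labels, the kit was QIAseq miRNA with single-end reads. The deposited values are raw counts per miRNA gene from deduplicated alignments, per the file headers, in 1 table per cell state, so that state and table coincide. The sources used here do not name the counter, nor say whether it used strand or how it treated reads that match several places. Genes were named by exact match of position to RefSeq (1179 of 2202 features).

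All 8 libraries entered one quasi-likelihood fit of the 4 groups (edgeR 4.0.16, R 4.3.3), with TMM factors (0.797 to 1.34), filterByExpr at a minimum count of 10, and Benjamini-Hochberg adjustment over all 219 tested features (4 residual and 36.6 prior degrees of freedom). Standard errors were taken from the fold change and its F statistic. Shares are percent of deposited counts with exact (Clopper-Pearson) 95% intervals, which cover counting error only; a count of 0 allows up to 3 counts, or 1.78 to 14.1 CPM. Replicates of a group correlated with r from 0.960 to 0.981 and differed by more than sampling noise. The fit was tested on simulated data with the same spread for all genes. In input it called 9 of 54 genes set to a log2 fold change of 1 in either direction. It called 31 of 49 set to 2, and 1 of 102 left unchanged. The spread set was the mean over genes, so these rates need not hold for any single gene, the members included. A gene that did not pass may still differ. Alternatives changed the scaling, the filter, the libraries fitted, the tool (DESeq2 1.42.0) and the pseudocount of 0.5 of the ratio. The genes named are the members, the let-7 list with its 4 most abundant other genes, the 5 features most correlated with each member, and the neighbouring pairs with the largest and smallest difference. Members and lists were chosen with earlier results of these data known.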

Additional observations from a re-analysis of the deposited data

Results flagged for a closer look

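Mirlet7f-2 moved in opposite directions in the 2 states: both resting IPs lay above both resting inputs, and both proliferating IPs lay below both proliferating inputs. The difference between the states was 2.18 on the log2 scale. The log2 ratio of Mir98 to Mirlet7f-2 counts did the reverse, with a difference of -1.68. It was lower in both resting IPs and higher in both proliferating IPs than in the inputs of that state. Mirlet7f-2 is the denominator of this ratio, so the ratio is not a separate observation. Mir98 itself had log2 fold changes of 0.57 (SE 0.35) and 0.04 (SE 0.34) in resting and proliferating IP against input. Neither the 2.18 nor the -1.68 was tested, since the genes were chosen by how they move in the IP. The turn was not particular to Mirlet7f-2. In proliferating IP against input all 8 other tested let-7 genes had negative log2 fold changes, from -2.46 to -0.11 (Mirlet7d, SE 0.27). In resting IP against input they ran from -0.40 (Mirlet7c-1) to 1.88 (Mirlet7b). For 4 of the 8 the difference between the states was larger than for Mirlet7f-2.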

How the results depend on the processing

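The lower Mir98 level in resting input kept its direction and its call under every alternative run, from -2.15 with library totals to -1.43 with upper-quartile factors, and from -2.07 to -1.58 when 1 library was left out (highest edgeR adjusted p = 0.00461). Mirlet7f-2 in input did not pass under any and turned sign with library totals (-0.23), with only the libraries of the 2 groups (-0.067) and without proliferating input 2 (-0.062); leaving out 1 library gave -0.062 to 0.34. The median of all genes in input was -0.04 with TMM, -0.40 with library totals and 0.31 with upper-quartile factors. Leaving out 1 library gave 73 to 114 calls in input, the lowest being 73 of 253 genes tested without resting input 1 and the highest 114 of 228 without resting IP 2; no filter gave 98 of 560.

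Contrasts with IP moved with the scaling. Library totals gave 0.33 for Mir98 and 1.45 for Mirlet7f-2 in resting IP against input, -0.56 and -1.10 in proliferating IP against input, and 0.89 and 2.55 for the difference between states. Upper-quartile factors gave -0.61 and 2.98 between resting and proliferating IP, 0.72 and 1.85 in resting IP against input, and 0.81 and 2.50 for the difference. For Mir98 between resting and proliferating IP, DESeq2's size factors gave -1.12, its Wald test -1.13 and no filter -1.06; no filter also gave 0.68 for Mir98 in resting IP against input, and 0.74 and 2.39 for the difference. The cause of these shifts was not tested.

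Leaving out 1 library gave, for Mir98 and Mirlet7f-2 in turn, -1.34 to -0.83 and 2.05 to 2.75 between resting and proliferating IP, 0.35 to 0.79 and 1.51 to 1.95 in resting IP against input, -0.43 to 0.15 and -0.89 to -0.20 in proliferating IP against input, and 0.25 to 1.23 and 1.73 to 2.80 for the difference. The log2 ratio of Mir98 to Mirlet7f-2, which no scaling touches, ran from -2.04 to -1.79 in input and from -1.88 to -1.48 for the difference. A group left with 1 library was assumed to vary like the others. By Spearman's rho, 3 of the 5 features most like each gene were the same.

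The labels do not say what the numbers 1 and 2 stand for, and deviations of same-numbered libraries of different groups correlated with r from -0.12 to 0.18. With a replicate block, Mir98 in input was -1.80 (edgeR adjusted p = 6.03e-05), Mirlet7f-2 0.12, and 100 genes were called against 108. The fit of only the compared groups was not run for the difference between states, which needs all 4. Mir98 rests on 61 and 76 counts in resting input.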
